A study of Mus musculus with 64 samples.

Results

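Genes of fatty acid oxidation and ketone body metabolism were followed in liver, pancreas, muscle and adipose tissue of 16 mice. Of 37 genes named for this pathway, 36 had a probe set annotated to them alone, and each was represented by its probe set with the highest mean, out of 45037 probe sets on the array. Cpt1b, the carnitine palmitoyltransferase of muscle, had only a probe set shared with neighbouring genes and gave no value. The 36 measured genes were 18 of mitochondrial oxidation, 2 enzymes of ketone body handling, 10 peroxisomal genes, and 6 regulators and thioesterases.

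The mice were male F2 offspring of TALLYHO/JngJ, a strain with high plasma lipids, obesity and diabetes, and C57BL/6J. Each F2 animal carries its own mixture of the parental genomes. They were 24 weeks old, ate chow, and formed 2 groups of 8, one with high and one with low plasma triglyceride. Both groups hold extreme animals of the cross, and none with overt diabetes. The paper reports that the high group also had heavier inguinal and subscapular fat pads and a larger sum of pads. Cholesterol was higher in it too at some earlier ages. High and low mice thus differ in more than triglyceride, and these traits cannot be told apart here. Each mouse gave 4 arrays, 64 in all. Muscle was soleus and gastrocnemius together, adipose was several fat pads pooled within a mouse, and such whole tissues hold several cell types. In bulk tissue, fewer cells of a type and less RNA per cell cannot be told apart.

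In mitochondria, fatty acids enter as carnitine esters through the Cpt enzymes, are shortened by acyl-CoA dehydrogenases, hydratases and thiolases, and pass their electrons on through the electron transfer flavoprotein. Liver turns much of the resulting acetyl-CoA into ketone bodies, which other tissues burn. Peroxisomes shorten very long, branched and dicarboxylic chains and bile acid precursors, and the nuclear receptor PPAR-alpha switches on many genes of both routes in rodent liver.

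Levels are log2 values after gcRMA, a background correction and normalisation for this type of array. The lowest value was shared within a tissue but differed between tissues (2.305 in liver, 2.348 in pancreas, 2.286 in muscle, 2.237 in adipose), as when each tissue is normalised apart. Levels were therefore compared between tissues by their ranges only, without a test, and one gene's level was not set against another's. A median of 4 or more was taken as a measured level. A single array, liver low triglyceride replicate 7, went against its label. Its mean correlation with the other liver arrays was 0.830, against 0.973 or more for every other array with its own tissue. Its hepatocyte markers averaged 5.24 (14.5 to 14.8 in the other livers) while its adipocyte markers averaged 11.8, its brown adipocyte markers 10.3 and its skeletal muscle fibre markers 12.5. It was left out, so that liver had 8 high and 7 low arrays. In that array 20 of the 36 genes lay above and 10 below the range of the other livers. Cpt1a was 5.95 there (10.3 to 11.3 in the other livers), Bdh1 was 2.63 (10.1 to 10.6), and Pdk4 was 14.2 (3.59 to 6.87).

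Hepatocyte markers in liver, acinar markers in pancreas, fibre markers in muscle and adipocyte markers in adipose were high in their own tissue, with median array means of 14.6, 16.35, 15.4 and 13.7. Adipose also held muscle RNA. All 9 skeletal muscle fibre markers had a median of 4 or more there. Their array mean ran from 3.65 to 12.3 in high and from 4.09 to 13.5 in low triglyceride mice. In liver the median of their array means was 2.53 in high and 2.56 in low mice, but the highest was 8.30 and 8.16.

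Most genes of the pathway were measured in liver, muscle and adipose, and fewer in pancreas. A median of 4 or more was reached by 33 of 36 genes in liver (32.6% of all probe sets), 22 in pancreas (22.6%), 32 in muscle (35.4%) and 33 in adipose (43%). Of the 22 in pancreas, 3 (Cpt1a, Eci1 and Pex11a) had 1 identical value on 9 or 10 of 16 arrays, so a median of 4 does not always mean that the arrays told the animals apart. Of the 36 genes, 21 were measured in all 4 tissues. Pancreas was lowest, with no overlap with any other tissue, for 25 genes, against 37.9% of 22887 probe sets that reached a median of 4 somewhere. This count depended on the scale and was 9 when all arrays were quantile normalised together. Liver was highest without overlap for 8 genes (7.15% of probe sets), and 1 gene each was highest in pancreas (3.92%), muscle (12.9%) and adipose (26.8%). Muscle was lowest without overlap for 1 gene (6.31%). No gene was lowest without overlap in liver (7.86%) or adipose (2.53%).

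**Figure D1:**
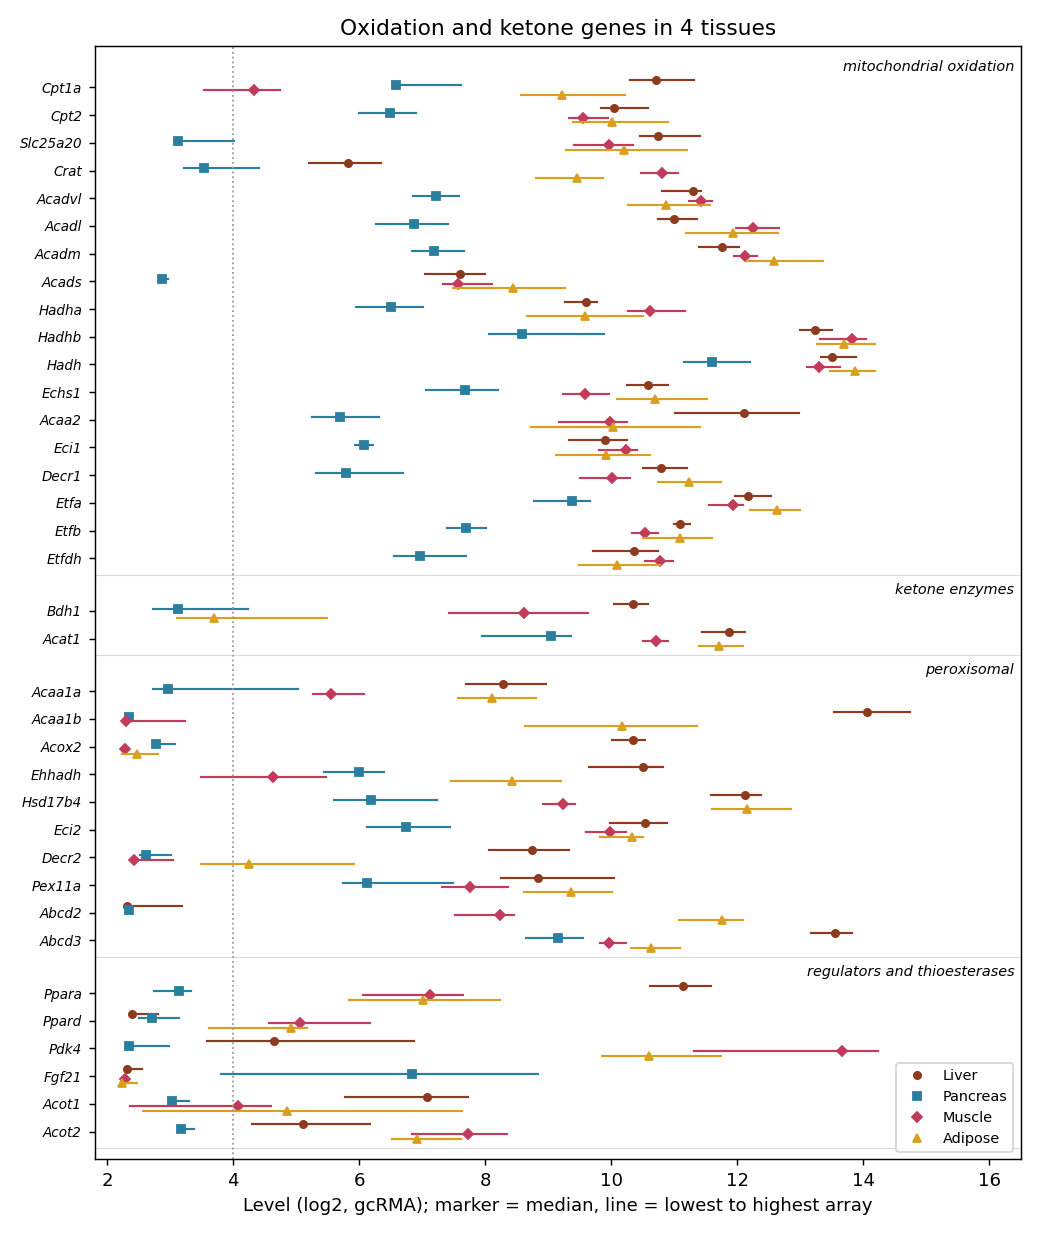
Level of each of the 36 genes in log2 units (horizontal axis), one row per gene and one colour per tissue. The marker is the median over 15 liver or 16 other arrays and the line runs from the lowest to the highest array. The dotted line marks a level of 4. Acaa1b, Acox2 and Abcd2 spread widest among the peroxisomal genes, while most mitochondrial genes sat together in liver, muscle and adipose.

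Entry of fatty acids into mitochondria differed between tissues at the first step. Cpt1a, the liver form of the enzyme that sets the rate of entry, ranged from 10.3 to 11.3 in liver (median 10.7), 8.56 to 10.2 in adipose (9.22), 6.56 to 7.62 in pancreas (6.59) and 3.53 to 4.75 in muscle (4.33). None of the 4 ranges touched. Its probe set carries a suffix that marks possible matches to other transcripts, and so do those of Hadhb, Hadh, Acaa2, Acaa1a and Hsd17b4. Cpt2, which reforms the acyl-CoA inside, had medians of 10.1 in liver, 10.02 in adipose and 9.55 in muscle, with overlapping ranges, and 6.49 in pancreas. Slc25a20, the carrier that moves acylcarnitines across the inner membrane, followed the same order, at 10.7, 10.2, 9.97 and 3.12. Crat, which exchanges acetyl groups between carnitine and CoA, ran the other way. It was highest in muscle without overlap (10.5 to 11.1), then adipose (8.81 to 9.87), then liver (5.195 to 6.34), and lowest in pancreas (3.22 to 4.41).

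The chain shortening enzymes were close in liver, muscle and adipose. The dehydrogenases for very long (Acadvl), long (Acadl) and medium chains (Acadm) had medians of 10.9 to 12.6 in these 3 tissues and of 6.88 to 7.22 in pancreas. Acads, for short chains, had medians of 7.57 to 8.44 in the 3 tissues, and in pancreas 13 of 16 arrays shared a value of 2.87. Acadl was lower in liver (10.7 to 11.4) than in muscle (12.0 to 12.7) without overlap, and adipose lay across both. Hadh, the dehydrogenase of medium and short hydroxyacyl chains, differed least between tissues of all 36 genes, with medians of 13.5 in liver, 11.6 in pancreas, 13.9 in adipose and 13.3 in muscle. Acaa2, the mitochondrial thiolase, had its widest range in adipose, from 8.73 to 11.4, and had medians of 12.1 in liver, 9.98 in muscle and 5.70 in pancreas. Echs1, Eci1 and Decr1, which hydrate chains and handle double bonds, had medians of 9.58 to 11.2 outside pancreas and of 5.79 to 7.67 within it. The 2 subunits of the electron transfer flavoprotein, Etfa and Etfb, and its dehydrogenase Etfdh had pancreas medians of 9.39, 7.70 and 6.97, each below every array of the other tissues.

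Hadha and Hadhb encode the 2 subunits of the trifunctional protein, which carries out the last steps on long chains. Hadha had its highest median in muscle, at 10.6 (10.3 to 11.2), which overlapped adipose (8.67 to 10.5), and medians of 9.60 in liver and 6.51 in pancreas. Hadhb had medians of 13.8 in muscle, 13.7 in adipose, 13.2 in liver and 8.58 in pancreas. These genes start 273 bases apart on chromosome 5 and point away from each other, so that they share the stretch between them. It is shown because it belongs to the upstream region of both genes. The line gives the bases that the 250 upstream bases of both genes have in common (GRCm38.p6, chr5:30155003-30155230, plus strand, RefSeq), with CG pairs in capitals:
Hadha and Hadhb: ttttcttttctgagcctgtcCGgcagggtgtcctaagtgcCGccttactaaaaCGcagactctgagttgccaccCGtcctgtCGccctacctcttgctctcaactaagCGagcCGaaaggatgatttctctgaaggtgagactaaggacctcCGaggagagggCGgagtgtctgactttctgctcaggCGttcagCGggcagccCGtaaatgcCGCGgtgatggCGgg
It holds 15 CG pairs in 228 bases.

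The ketone enzymes split by tissue. Bdh1, which interconverts the 2 main ketone bodies, ranged from 10.1 to 10.6 in liver (median 10.3), 7.42 to 9.63 in muscle (8.61), 3.11 to 5.49 in adipose (3.70) and 2.72 to 4.24 in pancreas (3.12). Liver and muscle lay apart from each other and from the other 2 tissues. Acat1, the thiolase that makes and splits acetoacetyl-CoA, varied less, with medians of 11.9 in liver, 11.7 in adipose, 10.7 in muscle and 9.04 in pancreas.

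Among the peroxisomal genes, liver was highest without overlap for 5 of 10 (7.15% of probe sets). Pancreas was lowest without overlap for 4 of 10, near the share of all probe sets (37.9%). Acaa1b, a thiolase of the peroxisome, ranged from 13.5 to 14.7 in liver (median 14.1) and from 8.63 to 11.4 in adipose (10.2). In pancreas 15 of 16 arrays sat at the lowest value of the tissue, and in muscle 9 of 16 shared a value of 2.30 and none passed 3.24. Acaa1a, its close relative, had medians of 8.29 in liver, 8.10 in adipose, 5.55 in muscle and 2.97 in pancreas, with liver and adipose overlapping. Acox2, the oxidase for branched chains and bile acid precursors, was measured in liver only, at 10.01 to 10.5, and its highest array elsewhere was 3.07. Decr2, which removes double bonds, ranged from 8.06 to 9.33 in liver and from 3.48 to 5.92 in adipose, and did not pass 3.05 in muscle or pancreas. Ehhadh, the bifunctional enzyme of straight dicarboxylic chains, had medians of 10.5 in liver, 8.43 in adipose, 6.00 in pancreas and 4.63 in muscle, with neighbouring tissues apart except pancreas and muscle. Hsd17b4, the bifunctional enzyme of branched chains, overlapped between liver (11.6 to 12.4) and adipose (11.6 to 12.9), and was lower in muscle (8.92 to 9.43) and pancreas (5.59 to 7.24).

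Carriers of the peroxisome membrane had opposite patterns. Abcd3, which imports branched and dicarboxylic acids, was highest in liver (13.2 to 13.8) and lower in adipose (10.3 to 11.1), muscle (9.82 to 10.2) and pancreas (8.66 to 9.56). Abcd2, a carrier of very long chains, was highest in adipose (11.1 to 12.1), lower in muscle (7.53 to 8.46), and, to 3 decimals as in all counts of equal values here, at the lowest value of the tissue on 12 of 15 liver arrays and all 16 pancreas arrays. Eci2, an isomerase, had medians of 10.5 in liver, 10.3 in adipose, 9.98 in muscle and 6.74 in pancreas. Pex11a, which helps peroxisomes divide, had medians of 9.37 in adipose, 8.84 in liver, 7.76 in muscle and 6.13 in pancreas.

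The upstream sequences of the 2 thiolases and of Acox2 are shown because Acox2 was measured in 1 tissue, Acaa1b in 2 and Acaa1a in 3. Each line holds the 250 bases before the gene's start (RefSeq, GRCm38.p6), with CG pairs in capitals. The windows are chr9:119341044-119341293 (plus strand) for Acaa1a, chr9:119157094-119157343 (minus strand) for Acaa1b and chr14:8259020-8259269 (minus strand) for Acox2, the upstream one of 2 listed starts.
Acaa1a: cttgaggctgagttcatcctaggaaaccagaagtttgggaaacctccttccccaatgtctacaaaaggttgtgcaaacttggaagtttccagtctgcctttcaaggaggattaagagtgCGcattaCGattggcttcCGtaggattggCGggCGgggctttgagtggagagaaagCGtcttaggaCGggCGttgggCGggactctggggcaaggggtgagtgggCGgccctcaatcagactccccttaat
Acaa1b: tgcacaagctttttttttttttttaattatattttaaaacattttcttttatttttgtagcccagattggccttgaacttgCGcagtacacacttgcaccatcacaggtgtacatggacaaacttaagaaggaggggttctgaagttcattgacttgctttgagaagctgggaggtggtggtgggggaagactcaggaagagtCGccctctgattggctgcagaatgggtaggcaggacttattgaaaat
Acox2: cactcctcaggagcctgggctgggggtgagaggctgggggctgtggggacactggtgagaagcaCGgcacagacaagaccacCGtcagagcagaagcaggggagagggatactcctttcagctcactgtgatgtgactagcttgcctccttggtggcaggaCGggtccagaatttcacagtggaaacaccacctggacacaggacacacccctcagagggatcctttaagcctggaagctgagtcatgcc
They hold 10, 2 and 3 CG pairs. Windows were matched for 30 of the 37 genes, 33 windows in all, and their median was 12 CG pairs, against 6 over all 32851 windows of this length. Taking the richest window of a gene, the 17 genes measured in all 4 tissues had 8 to 35 CG pairs (median 13). The 7 measured in 3 tissues had 4 to 27 (median 8), the 4 measured in 2 had 2 to 22 (median 10.5), and the 2 measured in 1 had 3 and 9, so the medians followed no steady order.

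A set of 4 short motifs was searched on both strands of the 33 windows. GGGCGG, which itself holds a CG pair, was in 18 (54.5%, against 32.7% of all windows), CCAAT in 14 (42.4%, against 33.8%), TATAA in 3 (9.09%, against 22.8%) and AGGTCA, the half-site that nuclear receptors such as PPAR-alpha bind, in 4 (12.1%, against 14%). The genes with AGGTCA were Cpt1a, Acadvl, Acadm and Echs1.

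Among the regulators, Ppara, the gene of PPAR-alpha, was highest in liver without overlap (10.6 to 11.6), with medians of 7.12 in muscle, 7.02 in adipose and 3.14 in pancreas. Ppard, of a related receptor, reached a median of 5.05 in muscle and 4.92 in adipose, while 14 of 15 liver arrays shared its value of 2.40. Pdk4, the kinase that shuts pyruvate dehydrogenase when fat is burned, ranged from 11.3 to 14.2 in muscle (median 13.7), 9.86 to 11.8 in adipose (10.6) and 3.59 to 6.87 in liver (4.64), and did not pass 2.98 in pancreas. Fgf21, a hormone best known from fasted liver, was measured in pancreas only, at 3.81 to 8.84 (median 6.84). In liver 12 of 15 arrays, in muscle 15 of 16 and in adipose 13 of 16 sat at the lowest value of the tissue, and no array outside pancreas passed 2.54. Fgf21 is the only gene of the 36 that was highest in pancreas, and its upstream sequence (chr7:45615491-45615740, minus strand) is shown for that reason, with 9 CG pairs in capitals and a TATAA match at -28 from the start:
Fgf21: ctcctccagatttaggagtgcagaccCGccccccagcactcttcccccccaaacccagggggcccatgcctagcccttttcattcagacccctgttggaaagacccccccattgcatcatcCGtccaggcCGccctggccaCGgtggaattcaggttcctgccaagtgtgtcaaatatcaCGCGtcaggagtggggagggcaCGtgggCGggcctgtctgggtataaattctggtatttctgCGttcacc

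Acot1 and Acot2 are neighbouring thioesterases of chromosome 12 that split acyl-CoA in the cytosol and in mitochondria. Acot1 had its highest median in liver (5.77 to 7.72, median 7.08), overlapping adipose (2.57 to 7.63, median 4.86), and a median of 4.08 in muscle, and 13 of 16 pancreas arrays shared a value of 3.03. Acot2 had its highest median in muscle (6.84 to 8.35, median 7.72), overlapping adipose (6.52 to 7.62), then liver (4.29 to 6.17), and 13 of 16 pancreas arrays shared a value of 3.18. Since these 2 neighbours lean to different tissues, their upstream bases are printed side by side, Acot1 from chr12:84009252-84009501 and Acot2 from chr12:83987611-83987860, both on the plus strand, with CG pairs in capitals:
Acot1: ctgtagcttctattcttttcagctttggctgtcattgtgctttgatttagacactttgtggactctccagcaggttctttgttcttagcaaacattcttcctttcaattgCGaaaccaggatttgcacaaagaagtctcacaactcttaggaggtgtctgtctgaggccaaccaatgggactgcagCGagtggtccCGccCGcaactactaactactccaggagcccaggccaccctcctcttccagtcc
Acot2: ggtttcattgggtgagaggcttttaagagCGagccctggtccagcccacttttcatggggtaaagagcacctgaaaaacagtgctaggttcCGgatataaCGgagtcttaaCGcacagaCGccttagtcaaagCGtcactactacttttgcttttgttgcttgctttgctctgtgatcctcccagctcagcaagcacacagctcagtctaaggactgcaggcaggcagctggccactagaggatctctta
They hold 4 and 6 CG pairs, and Acot2 has a TATAA match at -155.

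The balance of the 2 compartments was summarised on each array as the mean log2 of 20 mitochondrial and ketone genes minus that of the 10 peroxisomal genes. Since it sets probe sets against each other, only its change between tissues is described. It was 0.52 to 0.98 in liver (median 0.80), 1.66 to 2.05 in pancreas (1.83), 1.41 to 2.10 in adipose (1.84) and 4.02 to 4.27 in muscle (4.16). Muscle lay above and liver below all other arrays, and pancreas and adipose overlapped. Muscle and liver had similar mitochondrial means (10.4 ± 0.10 SD, n = 16, and 10.7 ± 0.11 SD, n = 15) and differed in the peroxisomal mean (6.25 ± 0.10 and 9.95 ± 0.21). With only the 21 of these 30 genes that were measured in all tissues, the medians were 0.13 in liver, 0.60 in pancreas, 1.06 in adipose and 2.36 in muscle. Muscle stayed highest and liver lowest, and all 4 medians were smaller without the genes that are near the lowest values in a tissue. The array left out, liver low replicate 7, had a balance of 2.95 and the mean of its mitochondrial genes was 11.7, above all other livers (10.6 to 10.9).

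**Figure D2:**
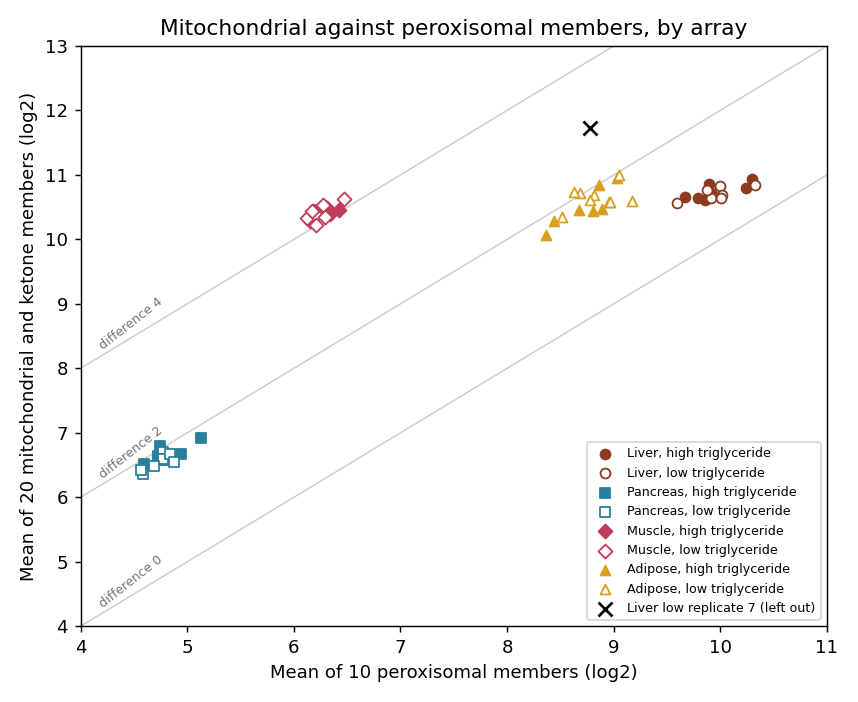
Mean log2 level of the 20 mitochondrial and ketone genes (vertical axis) against the mean of the 10 peroxisomal genes (horizontal axis) on each array. Filled symbols are high and open symbols low triglyceride mice, grey lines mark equal differences of 0, 2 and 4, and the cross is the liver array left out. Muscle sits near a difference of 4 and liver under 1, and high and low mice mix within each tissue.

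High and low triglyceride mice were then compared within each tissue. In liver, pancreas, muscle and adipose, 0 of the 36 genes passed an adjusted p of 0.05 in limma over 45037 probe sets, and 0 of all probe sets did (0% in each tissue). The lowest adjusted p of a pathway gene was 0.802 in liver, 0.795 in pancreas, 0.8996 in adipose and 0.846 in muscle. At an unadjusted p under 0.05 there were 3 genes in liver (5.36% of all probe sets), 3 in pancreas (2.23%), 2 in muscle (4.1%) and 2 in adipose (4.62%). Many probe sets without signal dilute these shares. Among probe sets with a mean of 4 or more the shares were 13.7% in liver, 6.37% in pancreas, 8.77% in adipose and 9.27% in muscle, and in fits to these probe sets alone 3 of 33 pathway genes in liver, 4 of 22 in pancreas, 1 of 33 in adipose and 2 of 31 in muscle were under 0.05. The balance of the compartments also overlapped between high and low mice in every tissue, with medians of 0.80 and 0.73 in liver, 1.91 and 1.82 in pancreas, 4.13 and 4.16 in muscle, and 1.74 and 1.86 in adipose.

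**Figure D3:**
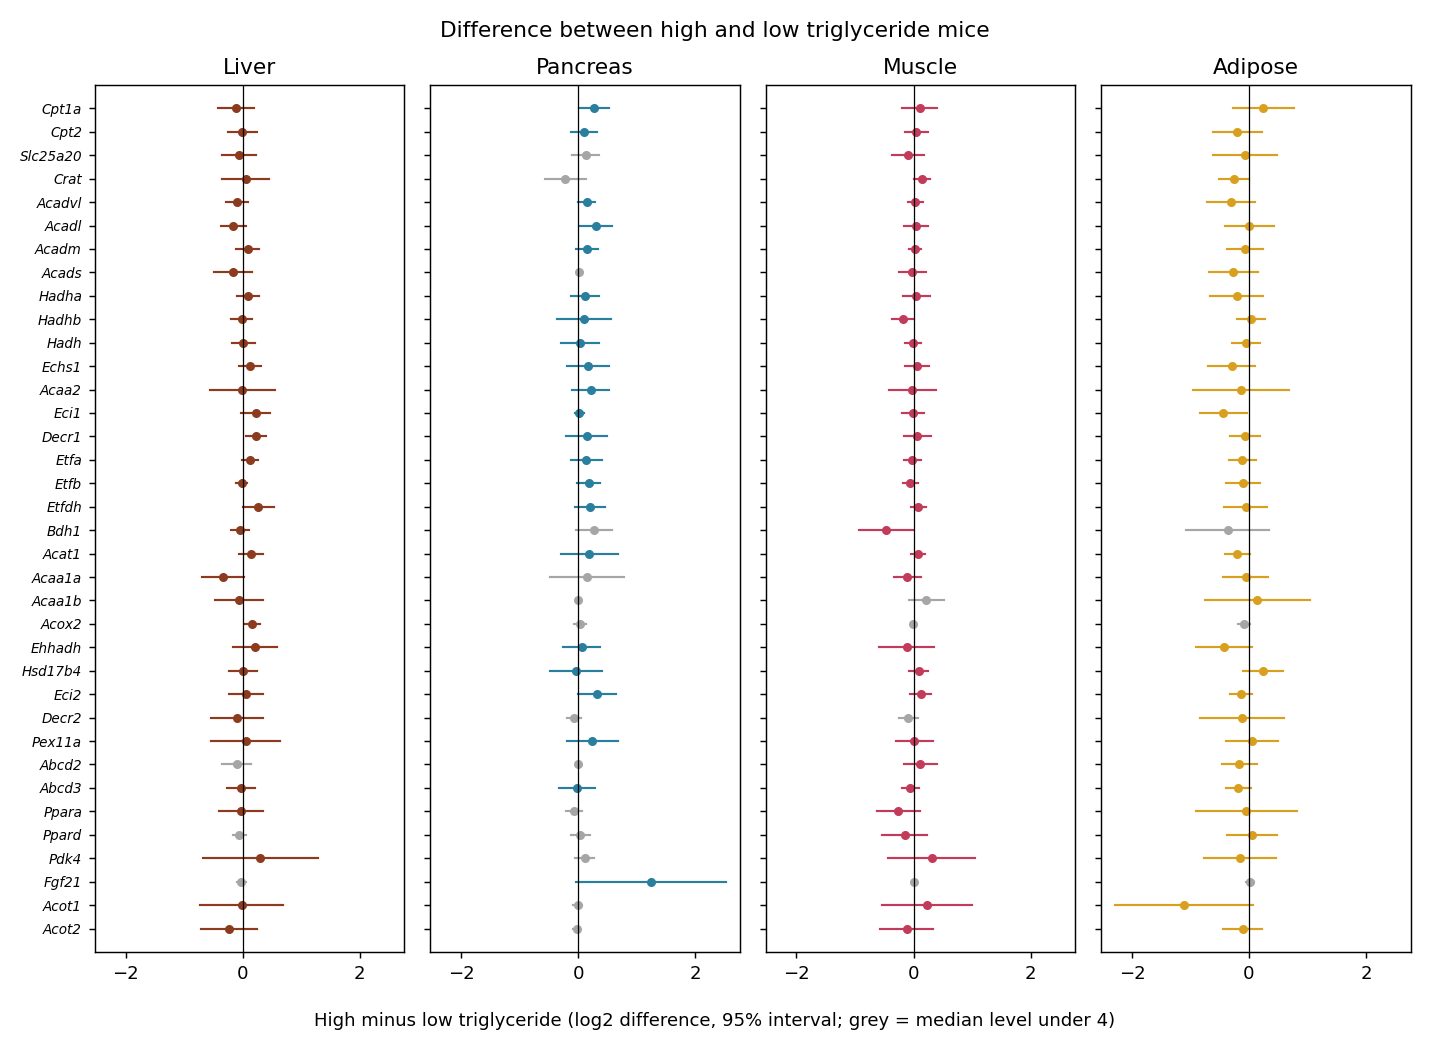
Difference between high and low triglyceride mice in log2 units (horizontal axis) for each gene in each tissue, with the 95% interval of the limma fit. Points to the right are higher in high triglyceride mice, and grey marks genes with a median level under 4. Most intervals include 0, and Fgf21 in pancreas and Acot1 in adipose have the widest.

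In liver, 15 genes were higher and 21 lower in high triglyceride mice, with a median difference of -0.01. Over all probe sets 41.3% were higher, a share that here and below counts equal values as not higher. Among probe sets with a mean of 4 or more 46.3% were higher, and 15 of 33 pathway genes. Decr1 ranged from 10.6 to 11.2 (median 10.8) in high and from 10.5 to 10.8 (10.6) in low mice, a difference of 0.22 (SE 0.08, limma adjusted p = 0.802). The ranges overlapped, although most high mice sat above most low ones. Etfdh differed by 0.27 (SE 0.12) and Acox2 by 0.16 (SE 0.06), both higher in high mice and both with an adjusted p of 0.802. Acaa1a was lower by value, at 7.69 to 8.50 in high and 7.81 to 8.96 in low mice. Pdk4 varied most, from 3.92 to 6.87 in high and from 3.59 to 5.96 in low mice, and its within-group SD of 0.90 was larger than that of 97.9% of the 14693 probe sets measured in liver. For Ppara the difference was -0.03, with an interval from -0.40 to 0.34. Skeletal muscle fibre markers were lower by value in high livers in all 9 of 9. Their array means ran from 2.48 to 8.30 (median 2.53) in high and from 2.50 to 8.16 (2.56) in low livers. Their part in these differences and in the spread of Pdk4 was not tested.

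In pancreas, 28 genes were higher and 8 lower in high triglyceride mice, with a median difference of 0.12 (0.05 without high replicate 2), and 62.1% of all probe sets were higher. Among probe sets with a mean of 4 or more 63.5% were higher, and 20 of 22 pathway genes. Of the 18 mitochondrial genes 17 were higher. Acadl ranged from 6.57 to 7.41 (median 6.89) in high and from 6.27 to 6.88 (6.73) in low mice, a difference of 0.31 (SE 0.13, limma adjusted p = 0.795). Eci2 differed by 0.33 (SE 0.15) and Cpt1a by 0.27 (SE 0.12), with the same adjusted p. Without high replicate 2 the Cpt1a difference was 0.16. For Cpt1a the low mice had nearly no spread, at 6.56 to 6.59, and the 10 arrays with 1 identical value have no order. Fgf21 had the widest range of these, from 5.91 to 8.84 (median 7.57) in high and from 3.81 to 7.89 (6.41) in low mice, a difference of 1.24 (95% interval -0.04 to 2.52, limma adjusted p = 0.795). The groups overlapped between 5.91 and 7.89. Islet markers were also higher in high mice, 6 of 7 by value, with an array mean of 7.99 to 9.10 (median 8.20) in high and 7.57 to 8.65 (7.94) in low mice, and 6 of 7 acinar markers were higher, with array means of 16.33 to 16.41 in high and 16.27 to 16.37 in low mice. The part of either in these differences was not tested.

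In muscle, 19 genes were higher and 17 lower, with a median difference of 0.01 (42.2% of all probe sets higher). Among probe sets with a mean of 4 or more 51% were higher, and 16 of 31 pathway genes. Bdh1 ranged from 7.42 to 8.93 (median 8.48) in high and from 8.22 to 9.63 (8.79) in low mice, a difference of -0.47 (SE 0.22, limma adjusted p = 0.846). The groups overlapped, and the 2 lowest arrays were high triglyceride mice. Crat differed by 0.15 (SE 0.06, same adjusted p), at 10.8 to 11.1 in high and 10.5 to 10.9 in low mice. Pdk4 had the same median of 13.7 in both groups, but ran from 13.3 to 13.8 in high and from 11.3 to 14.2 in low mice. The 6 measured adipocyte markers were all higher by value in high mice, with an array mean of 6.15 to 8.11 (median 7.35) against 6.41 to 7.33 (6.75), and all 7 acinar markers were too, at 2.84 to 4.83 (3.94) against 2.70 to 3.54 (2.75). Hepatocyte markers averaged 2.52 to 6.44 (4.45) against 2.95 to 4.28 (3.27). The part of these lists was not tested.

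In adipose, 8 genes were higher and 28 lower in high triglyceride mice, with a median difference of -0.11, and 38.7% of all probe sets were higher. The median was -0.17 without low replicate 8, -0.07 without high replicate 6 and -0.05 without high replicate 4. Among probe sets with a mean of 4 or more 40.4% were higher, and 7 of 33 pathway genes. Eci1 ranged from 9.12 to 10.4 (median 9.70) in high and from 9.60 to 10.6 (10.4) in low mice, a difference of -0.44 (SE 0.19, limma adjusted p = 0.8996). The groups overlapped, with most low mice above all but the highest high mouse. A joint fit over the 4 tissues, which shares 1 estimate of spread, gave Eci1 an adjusted p of 0.029. The SD of Eci1 within a group was 0.38 in adipose, 0.22 in liver, 0.18 in muscle and 0.07 in pancreas. A shared estimate therefore understates its spread in adipose. That fit called 1261 of all probe sets in adipose (2.8%), against 1 of the 36 genes, and Eci1 was the only call among the 36 genes in the fits that were run for a single tissue's difference. Crat differed by -0.26 (SE 0.12), at 8.81 to 9.59 in high and 9.12 to 9.87 in low mice. Acot1 ranged from 2.57 to 6.45 (median 4.10) in high and from 3.82 to 7.63 (5.42) in low mice, a difference of -1.11 (95% interval -2.29 to 0.08). Skeletal muscle fibre markers were lower by value in high mice in all 9 of 9 (median difference -1.10, array mean medians of 10.5 against 12.8) and slow fibre markers in 7 of 7 (-1.89). Their part in these differences was not tested. Hepatocyte markers averaged 4.11 to 7.94 in high and 4.19 to 4.61 in low adipose, while adipocyte markers averaged 13.7 to 14.0 and 13.5 to 14.1. Across the 16 adipose arrays, the correlation with the slow fibre gene Myh7 was above 0 for 24 of 33 measured genes (median r 0.21) and that with the brown adipocyte gene Ucp1 for 26 of 33 (median r 0.37), out of 152 relations with such marker genes computed in adipose, muscle and pancreas. By Pearson's r 0 of the 152 passed an adjusted permutation p of 0.05 (lowest 0.0536). By Spearman's rho 4 passed, all in adipose. Acadl (r = 0.72, rho = 0.77, adjusted permutation p = 0.0536 and 0.0329), Hadha (r = 0.71, rho = 0.80, adjusted permutation p = 0.0536 and 0.0329) and Acadvl (r = 0.77, rho = 0.76, adjusted permutation p = 0.0536 and 0.0338) went with Ucp1. Crat went with Myh7 (r = 0.72, rho = 0.79, adjusted permutation p = 0.0538 and 0.0329). Without the 2 farthest mice r was 0.645, 0.63, 0.75 and 0.595 for these 4. The marker genes were chosen after the values had been seen. The share of other probe sets with such correlations was not computed, so these counts do not set the pathway genes apart.

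**Figure D4:**
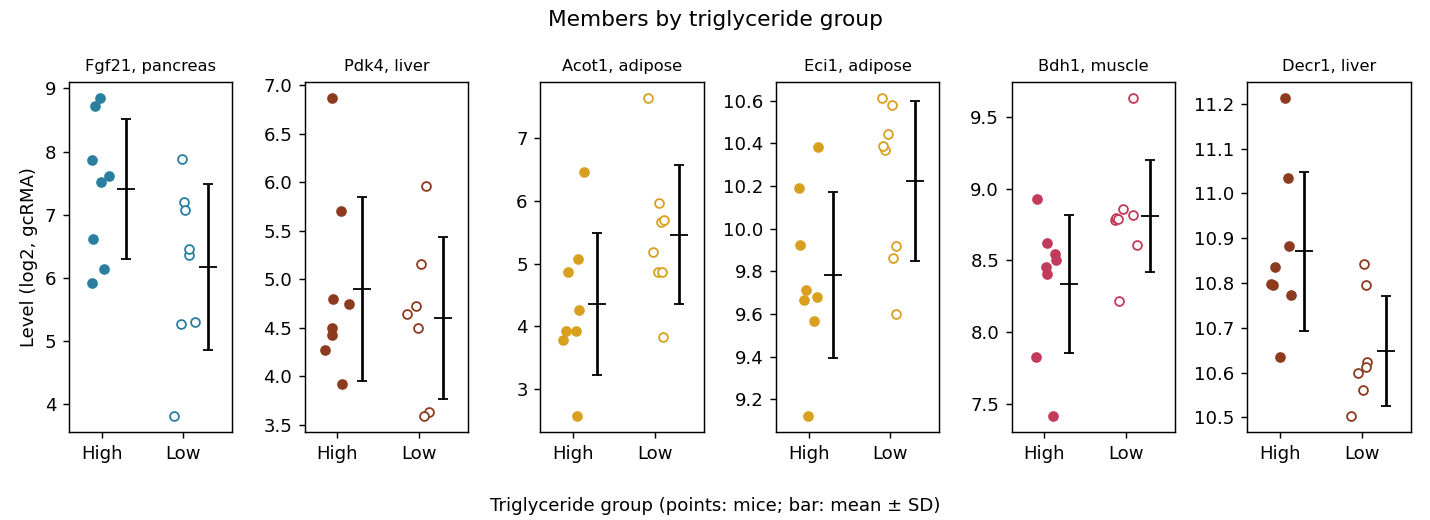
Levels in log2 units (vertical axes, each with its own range) of 6 gene and tissue combinations in high (filled) and low (open) triglyceride mice. Each point is 1 mouse and the bar is the mean ± SD. The groups overlap in all 6 panels.

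Whether the difference between high and low mice varied among tissues was tested with the interaction term of the joint fit. That fit shares an estimate of spread, although adipose varied more than the other tissues. Of the 36 genes 0 passed an adjusted p of 0.05 (0.338% of all probe sets did), and 4 had an unadjusted p under 0.05 (8.92% of all probe sets). These were Eci1 (limma adjusted p = 0.187), Acox2 (0.221), Fgf21 (0.316) and Acadvl (0.546). Acox2 was measured in liver only and Fgf21 in pancreas only, and each sat at the lowest value on 15 of 16 muscle arrays. A shared estimate therefore understates the SD of 1.21 that Fgf21 had in pancreas.

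A wider list of 54 other genes of these routes, 47 of them measured, was compared in the same way. None passed the adjusted threshold in a tissue. At an unadjusted limma p under 0.05 there were 3 in liver (5.36% of all probe sets) and 4 in pancreas (2.23%), all higher in high mice. In muscle 1 was higher and 3 lower (4.1%). In adipose 11 were lower and 0 higher, against 4.62% of all probe sets and 8.77% of those with a mean of 4 or more. By value 40 of 47 were lower in adipose of high mice, where 38.7% of all probe sets were higher. The 3 with the lowest p in adipose were Ppargc1a, a coactivator of mitochondrial genes, Pdk2, another kinase of pyruvate dehydrogenase, and Acacb. Acacb is the acetyl-CoA carboxylase whose product blocks Cpt1. Ppargc1a ranged from 4.36 to 5.45 (median 5.01) in high and from 5.34 to 6.77 (6.07) in low mice, a difference of -1.07 (SE 0.22, limma adjusted p = 0.624). Only the edges of the 2 groups met. Pdk2 differed by -1.004 (SE 0.23, adjusted p = 0.638) and Acacb by -1.14 (SE 0.33, adjusted p = 0.864). Skeletal muscle fibre markers were also lower in these arrays (median difference -1.10). Of 8 brown adipocyte markers 5 were lower and 3 higher by value in high mice (median difference -0.21). The lowest difference among these 8 was -1.07, the same value as for Ppargc1a. The part of either list was not tested. In liver the lowest p belonged to Pex7, a receptor that imports peroxisomal proteins, at 9.58 to 10.3 in high and 9.23 to 9.75 in low mice (difference 0.43, SE 0.11, limma adjusted p = 0.802), followed by Acad11 (0.33) and Acot12 (0.24). In pancreas they were Mlycd (0.21), Pex13 (0.36) and Acot8 (0.25), all higher in high mice, and in muscle Acad8 (-0.22), Ppargc1a (-0.26) and Slc22a5 (0.06).

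Pairs of pathway genes, and Acadm with the adipocyte gene Adipoq, were also followed from mouse to mouse. Over 25 relations between 8 pairs of genes within a tissue, 9 passed an adjusted permutation p of 0.05 by Pearson's r (Benjamini-Hochberg over the 25), all positive. The share of other pairs of probe sets that would pass was not computed, so this count does not set these pairs apart. Acadm and Adipoq did not pass in muscle (r = 0.02) or adipose (r = 0.47). Etfa and Etfb, whose proteins form 1 complex, had r = 0.85 and rho = 0.80 over 16 mice in adipose (permutation p = 4e-05 and 0.00032, adjusted 0.001 and 0.008, r = 0.72 without the 2 farthest mice). In muscle they had r = 0.61 and rho = 0.70 (permutation p = 0.00869 and 0.00322, adjusted 0.0362 and 0.0178, r = 0.79 without 2 mice). Their relation did not pass in pancreas (r = 0.35, permutation p = 0.179) or liver (r = -0.42, permutation p = 0.117). Acadm and Acadl had r = 0.71 in adipose (rho 0.57, permutation p = 0.002 and 0.0246, adjusted 0.0203 and 0.0877), which was 0.41 without 2 mice, and r = 0.62 in muscle (rho 0.65, permutation p = 0.0109 and 0.00821, adjusted 0.0375 and 0.0342), which was 0.59 without 2 mice. It did not pass in liver (r = 0.43, permutation p = 0.111) or pancreas (r = 0.05, permutation p = 0.866).

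Hadha and Hadhb, which share an upstream stretch, did not pass in any tissue. Their r was -0.05 in liver, -0.26 in pancreas and -0.25 in muscle. In adipose it was 0.57 (rho 0.53, permutation p = 0.0227 and 0.0361, adjusted 0.0566 and 0.113). In muscle 1 mouse, high replicate 5, had the highest Hadha and the lowest Hadhb of all 16, and r without 2 mice was 0.29. Removing the group means gave 0.61 in adipose with an adjusted permutation p of 0.0349.

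Ehhadh and Acaa1b moved together in liver, with r = 0.71 and rho = 0.74 over 15 mice (permutation p = 0.00339 and 0.00216, adjusted 0.0212 and 0.0178, r = 0.62 without 2 mice). In adipose, where both were measured, r was 0.27 (permutation p = 0.307). Acot1 and Acot2 had r = 0.625 and rho = 0.74 in liver (permutation p = 0.012 and 0.00218, adjusted 0.0375 and 0.0178), and 0.84 without 2 mice. In muscle their r of 0.66 (rho 0.46, permutation p = 0.00636 and 0.0739, adjusted 0.0318 and 0.168) was 0.13 without 2 mice, so it rests on those mice. Cpt1a and Pdk4 in muscle had r = 0.79 (rho 0.52, permutation p = 0.00244 and 0.0419, adjusted 0.0203 and 0.116), and Acot1 and Pdk4 had r = 0.625 (rho 0.70, permutation p = 0.0162 and 0.00357, adjusted 0.0449 and 0.0178). A single animal, low replicate 5, had the lowest Pdk4 (11.3) and Cpt1a (3.53) of all 16 muscles. Without it r was 0.41 for Cpt1a and Pdk4 and 0.32 for Acot1 and Pdk4. In liver these pairs had r = 0.24 and 0.23 (permutation p = 0.393 and 0.414), and in adipose -0.23 and -0.16 (permutation p = 0.396 and 0.55). Acot1 and Acot2 in adipose had r = 0.09 (permutation p = 0.735).

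**Figure D5:**
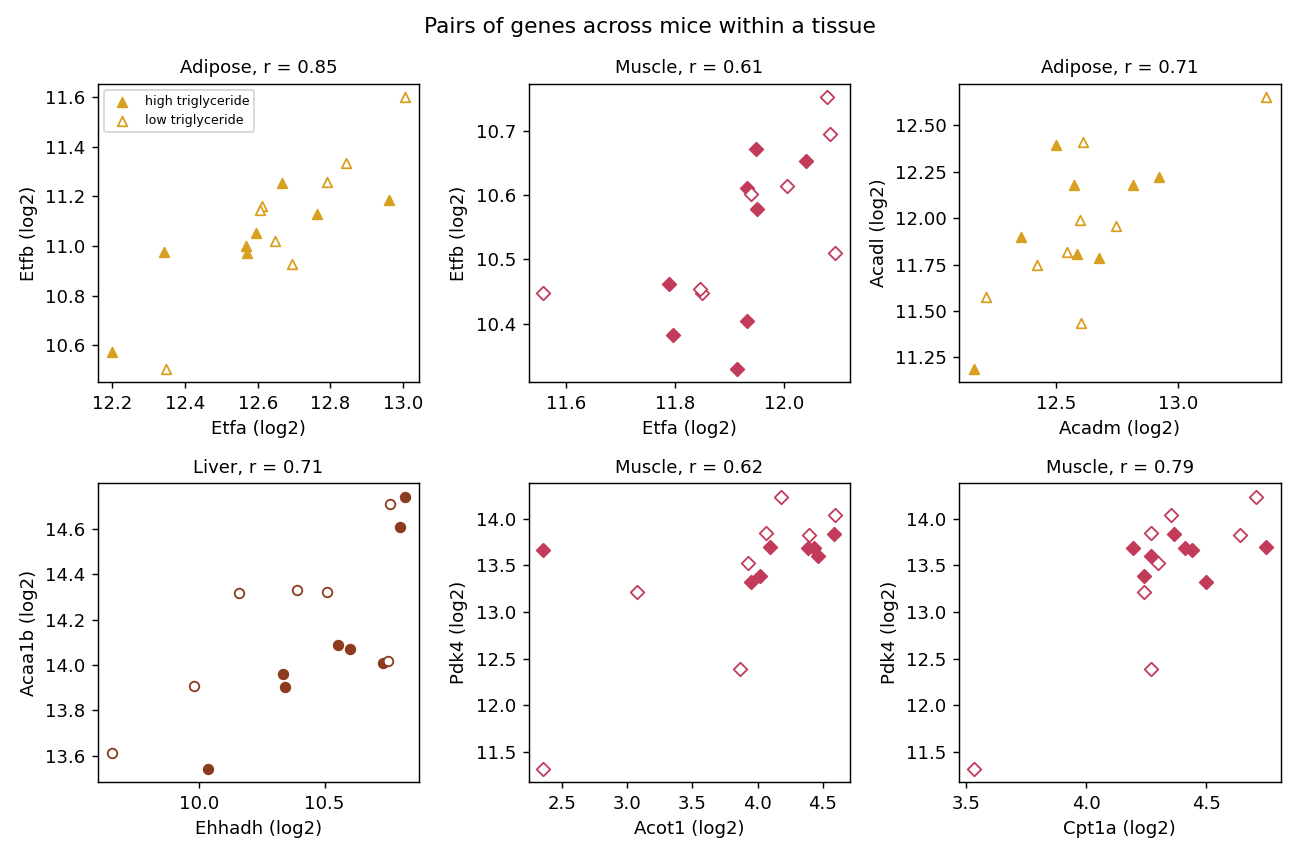
Levels in log2 units of 6 pairs of genes across the mice of 1 tissue, with high triglyceride mice filled and low ones open. Pearson's r stands above each panel. In both muscle panels with Pdk4, 1 low triglyceride mouse lies far below the others at the bottom left.

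Between tissues of the same mice, 155 relations of a gene with itself were computed and 0 passed an adjusted permutation p of 0.05. The 3 with the lowest p were Acaa2 in liver and muscle (r = 0.71, rho = 0.58, permutation p = 0.00216 and 0.0261, adjusted 0.223 and 0.449), Abcd3 in pancreas and muscle (r = 0.69, rho = 0.64, permutation p = 0.00396 and 0.00849, adjusted 0.223 and 0.249), and Abcd3 in pancreas and adipose (r = 0.67, rho = 0.68, permutation p = 0.00432 and 0.005, adjusted 0.223 and 0.247). Without the 2 farthest mice r was 0.45, 0.61 and 0.58.

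The spread between mice of a group was close to that of other probe sets at this level. The median SD of the measured pathway genes was 0.22 in liver, 0.30 in pancreas, 0.38 in adipose and 0.20 in muscle, against 0.24, 0.26, 0.34 and 0.20 over all probe sets with a median of 4 or more. Fgf21 in pancreas had an SD of 1.21, larger than 99.6% of these probe sets. Acot1 in muscle had 0.73 (98.1%), Pdk4 in muscle 0.71 (98%) and Acot1 in adipose 1.12 (96.2%).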

How the data were processed

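RNA from 4 tissues of 16 mice was hybridised to 64 arrays (Affymetrix, 1 colour, whole mouse genome). The deposited values are log2 intensities that the authors obtained with gcRMA, in a version not given in the sources used here. Of 45101 rows, 64 controls were left out. Of the rest, 34945 probe sets had 1 gene in the platform annotation, 932 had several and 9160 had none. The number of arrays limits precision, and so do values shared by many arrays of a tissue. Each value is 1 array of 1 mouse.

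High and low triglyceride mice were compared in each tissue with limma 3.58.1 in R 4.3.3 (Benjamini-Hochberg over 45037 probe sets, threshold 0.05), without liver low replicate 7. The interaction used a joint fit of 63 arrays with mouse as a random block (consensus correlation 0.0142). In adipose 6886, in liver 8056 and in muscle 7187 probe sets had 1 value on every array, in pancreas 0. Correlations used 100000 permutations, two-sided, in numpy 2.4.6. The limma step was tested on simulated data. Upstream sequences came from RefSeq (GRCm38.p6).

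All 36 measured genes were named. Of the wider list, genes past the threshold in a tissue were named or, where there was none, the 3 with the lowest p. Genes and lists were chosen with earlier results of these data known. A table of traits and genotypes was not used because its rows could not be tied to the arrays. Alternatives were other normalisations, a filter on low values, a plain F test, array weights, blocks, probe set choice and leaving out each array. Replicate numbers of high and low mice name different animals, and same-numbered arrays did not deviate together.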

Additional observations from a re-analysis of the deposited data

Results flagged for a closer look

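In 23 of 240 groups of 7 or 8 mice, 1 value lay farther out than a Dixon test at the 95% level allows. Chance alone gives about 5% for independent values without ties. The genes here share the same mice and some groups hold equal values, so the count is not read as an excess. In muscle, high replicate 5 had a Hadha of 11.17 (10.39 to 10.7 in the other high mice) and the lowest Hadhb (13.32), Hsd17b4 (8.917) and Ppara (6.064) of its group. Muscle high replicate 1 had an Ehhadh of 3.48 and an Acot1 of 2.358. Muscle low replicate 2 had an Etfa of 11.56 and a Bdh1 of 9.627, and muscle low replicate 5 a Cpt1a of 3.531.

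In pancreas, high replicate 2 had the highest Cpt1a (7.618), Hadhb (9.88) and Etfdh (7.689) of its group. Low replicate 8 had a Cpt1a of 6.561 beside 7 arrays that all read 6.591, low replicate 7 a Hadha of 5.953 and low replicate 2 a Pex11a of 5.838.

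In adipose, low replicate 6 had an Acadm of 13.36 and an Acads of 9.262, high replicate 4 an Etfb of 10.57 and low replicate 1 a Ppard of 3.619. In liver, low replicate 4 had an Acaa2 of 11.02, low replicate 5 an Hsd17b4 of 11.58, low replicate 6 a Pex11a of 10.05 and high replicate 3 an Acot1 of 5.774.

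The array left out, liver low replicate 7, carried a signal not used in the comparisons. Its 20 mitochondrial and ketone genes averaged 11.73 (10.56 to 10.94 in the other livers) and its brown adipocyte markers 10.29 (3.705 to 5.098).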

How the results depend on the processing

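In the separate fits per tissue 0 probe sets passed. A joint fit over tissues gave 204 in liver, 40 in pancreas, 1261 in adipose and 68 in muscle, and 1 pathway gene (Eci1, -0.44). Averaging all probe sets of a gene gave 1 in muscle. The replicate number as a block gave 4 in adipose, and 0 pathway genes in each tissue. Same-numbered mice did not deviate together, so the numbers pair no animals. Leaving out 1 array gave 0 to 0 probe sets in liver, 0 to 1 in pancreas (1 without high replicate 2), 0 to 2 in muscle (2 without high replicate 3, 1 without low replicate 3) and 0 to 1 in adipose (1 without high replicate 1), and 0 pathway genes. With liver low replicate 7 the interaction was called for 24 probe sets, the Decr1 difference in liver was -0.0168, and Acot1 and Acot2 in liver had r = -0.525. The cause of these shifts was not tested.

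The mitochondrial minus peroxisomal median, in the order liver, pancreas, muscle and adipose, was 0.2391, 1.4255, 3.8352 and 1.6472 with the mean of all probe sets of a gene, 0.1255, 0.5961, 2.3621 and 1.0642 with genes measured in every tissue, 1.098, 2.1849, 4.5375 and 2.0682 without Crat and Eci2, and 0.4358, 2.2988, 3.8447 and 0.9773 as a median over genes. With Pdk4 and Acot2 it was 0.3182 in liver and 1.4752 in pancreas. Quantile normalisation of all arrays gave 2.2562 in pancreas and 3.9855 in muscle, and left 9 genes lowest in pancreas without overlap. Without probe sets that may match several transcripts, an alternative chosen after seeing the data, it was 0.3505, 1.4823 and 3.9609 in liver, pancreas and muscle. Muscle was highest and liver lowest under each of these, while pancreas and adipose changed order. Of 32 other settings of this balance, 23 moved its median by at least the SD between arrays of the tissue. For genes with an unadjusted limma p under 0.05 in a tissue, 81 of 83 other settings kept direction and side of the threshold. These genes were picked by their p in the same arrays, so this tally says little about how stable the differences are. Equal values have no order, and in pancreas 11 of 36 genes had 1 value on most arrays. Median differences of the genes without 1 array ran from -0.0379 to 0.0317 in liver and from -0.0006 to 0.0422 in muscle, so their sign rests on single arrays.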
